A study of Mus musculus with 6 samples.

Results

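Wnt proteins are secreted, lipid-carrying signals. A Wnt ligand binds a Frizzled receptor, often together with the co-receptor Lrp5 or Lrp6, and Dishevelled proteins then hold back the destruction complex, in which Axin and Apc bring beta-catenin to the kinases Csnk1a1 and Gsk3. Beta-catenin that escapes destruction acts in the nucleus with TCF/LEF factors. In regenerating muscle, Wnt signals are known to act on satellite cells, the stem cells of the fibres, and on the fibro-adipogenic cells between fibres.

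The genes described here were chosen by symbol: every Wnt, Fzd, Sfrp, Dkk, Dvl, Axin and Rspo gene with a number in its name, and further receptors, inhibitors and intracellular components named one by one. Of the 14016 genes with a row in the deposited table, 53 met this rule, 33 by a family name and 20 by name. RNA of whole quadriceps from 6 mice was sequenced in bulk 7 days after volumetric muscle loss, a surgical removal of part of the muscle. The study operated on both legs. In control injuries, such as these, the gap was filled with sterile saline and held no implant. The groups were 3 WT mice and 3 mice labelled GATA-1 mutant, the ΔdblGATA line, which lacks eosinophils because a GATA site in the Gata1 promoter is deleted. WT mice were female C57BL/6 of 10 to 12 weeks at surgery, and the labels give no age for the mutant mice.

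The study asked how muscle injury differs without eosinophils. Apart from columns of the genotype comparison made by the authors, which were not used, the table gives for each gene 1 value, its mean log2 CPM (reads of the gene scaled to a common library size) over all 6 libraries. Levels of the Wnt genes are therefore given for the 6 mice together, as the authors' mean. A difference between the genotypes, the spread between mice and the depth of each library could not be computed, so neighbours in the orders below cannot be told apart by any error. In whole muscle, fewer cells of a type and less RNA per cell cannot be told apart either. Where genes are compared by level, the value is the mean log2 CPM minus log2 of the length in kilobases (kb) of the longest coding transcript, the per-length level.

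Fibre genes such as Acta1 (per-length level 13.77) and Myh4 (12.06) were near the top of the table, and all 5 mature fibre markers looked for had a row, as did 6 of 6 for new fibres and myoblasts, 5 of 5 for fibro-adipogenic progenitors, 4 of 4 for endothelium, 3 of 4 for macrophages, 3 of 4 for neutrophils, 2 of 4 for T cells and 3 of 3 for Schwann cells. Of 8 eosinophil markers only Ear2 had a row (per-length level 0.61), and Gata1, the targeted gene, had none, and a mean over both genotypes would in any case give no check of the labels. A missing row does not by itself show a low level, since Adgre1, a macrophage gene, had none although the macrophage genes Cd68 (4.75) and Csf1r (3.92) did.

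The table held rows for 11 of the 19 Wnt ligand genes in the mouse annotation. These were Wnt2, Wnt2b, Wnt4, Wnt5a, Wnt5b, Wnt6, Wnt9a, Wnt10a, Wnt10b, Wnt11 and Wnt16. What they share is shown first, in the stretch of 24 coding bases around the serine to which the enzyme Porcn attaches a lipid, without which a Wnt protein is not secreted in active form. The stretch was found by translating each coding sequence of GENCODE M21 and searching for a fixed pattern of residues. The pattern asked for cysteine, then histidine, glutamine or lysine, then glycine, any residue, serine, glycine, any residue and cysteine. Capitals mark the serine codon, and positions are on GRCm38, the build of that annotation, while the submitters' processing notes name GRCm39.

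Wnt9a, chr11:59330926-59330949, plus strand, exon 4 of 4: tgccatggtgtgTCTggctcctgc
Wnt4, chr4:137296345-137296368, plus strand, exon 5 of 5: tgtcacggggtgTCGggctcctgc
Wnt11, chr7:98850260-98850283, plus strand, exon 6 of 7: tgccatggggtgTCTggctcctgc
Wnt5a, chr14:28522515-28522538, plus strand, exon 5 of 5: tgtcatggagtgTCTggctcctgt
Wnt5b, chr6:119433800-119433823, minus strand, exon 5 of 5: tgtcacggagtcTCCgggtcctgc
Wnt16, chr6:22297800-22297823, plus strand, exon 4 of 4: tgccacggagttTCCggctcctgt
Wnt2, chr6:18008792-18008815, minus strand, exon 4 of 5: tgtcatggtgtgAGTggctcctgt
Wnt2b, chr3:104951220-104951243, minus strand, exon 4 of 5: tgtcacggtgtgAGTggctcctgt
Wnt6, chr1:74784172-74784195, plus strand, exon 4 of 4: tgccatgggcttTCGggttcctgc
Wnt10b, chr15:98772878-98772901, minus strand, exon 5 of 5: tgccatggaacgTCAggcagctgc
Wnt10a, chr1:74803156-74803179, plus strand, exon 4 of 4: tgccacggcaccTCAggcagctgc

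All 11 ligands held this site, once each, and 11 of its 24 bases were the same in all of them. Most residues of the stretch were set by the search pattern, so the shared bases are largely fixed by the search. Across the 55 pairs of ligands the number of identical bases ran from 12, for Wnt2 and Wnt10a, to 23, for Wnt9a and Wnt11 and for Wnt2 and Wnt2b. The serine was written TCT in 3 ligands and AGT, TCA, TCC and TCG in 2 each, with AGT in Wnt2 and its close relative Wnt2b. The 31-base words of each transcript show how far reads could be shared between genes. Wnt11 had 9.76% of these words in common with other genes, mainly Gm8398 on the opposite strand. Wnt4 had 6.62%, mainly with Eif2a, whose exons do not overlap those of Wnt4. The other 9 ligands had under 1%.

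**Figure D1:**
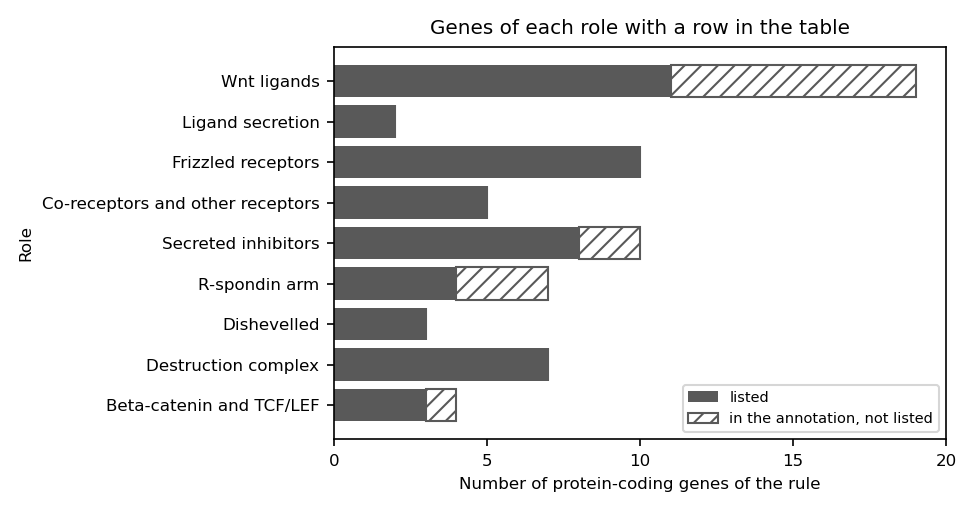
Number of protein-coding genes of the rule (x axis) in each of 9 roles (y axis), with filled bars for genes that have a row in the table and hatched bars for those in the annotation that have none. The Wnt ligands have the longest hatched bar, 8 of 19 genes, and all 10 Frizzled genes are listed.

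Receptors and intracellular components were listed nearly in full. Of the secreted genes, 11 of 19 ligands, 8 of 10 inhibitors and 1 of 4 R-spondins had a row. All 10 Frizzled genes, all 5 co-receptors and other receptors, all 3 Dishevelled genes, all 7 genes of the destruction complex and both genes for ligand secretion had a row. The ligands without a row were Wnt1, Wnt3, Wnt3a, Wnt7a, Wnt7b, Wnt8a, Wnt8b and Wnt9b. Wnt7a, known as a signal for satellite cells through Fzd7, is among them. Of the inhibitors Dkk1 and Dkk4, of the R-spondins Rspo1, Rspo2 and Rspo4, and of the TCF/LEF factors Lef1 had none. In all, 53 of 67 protein-coding genes of the rule (79.1%) had a row, against 62.4% of the 21951 protein-coding genes in the annotation. Whether the share of a single role differs from that of all coding genes was not tested. Genes had to pass 1 CPM in 3 or more libraries to be kept by the authors, and whether that filter left out a given gene was not tested.

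The 53 genes as a group lay slightly below the typical gene of the table. Their median mean log2 CPM was 3.83, against 4.03 over all 14016 genes, and their median per-length level was 1.78, against 2.28 over the 13940 genes with a known length. On the per-length scale 20 of 53 (37.7%) were above the median of all genes, 6 (11.3%) above the upper quartile and 17 (32.1%) below the lower quartile. The lowest, Rnf43, and the highest, Csnk1a1, were 908-fold apart. With the median length over coding transcripts 16 genes were above the median of all genes, 6 above the upper and 18 below the lower quartile, and per kb of coding sequence 21, 9 and 17. Under these lengths the highest and the lowest gene were 3076-fold and 1804-fold apart. The first of these had Ctnnb1 as the highest gene, with a median length shorter than its coding sequence.

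**Figure D2:**
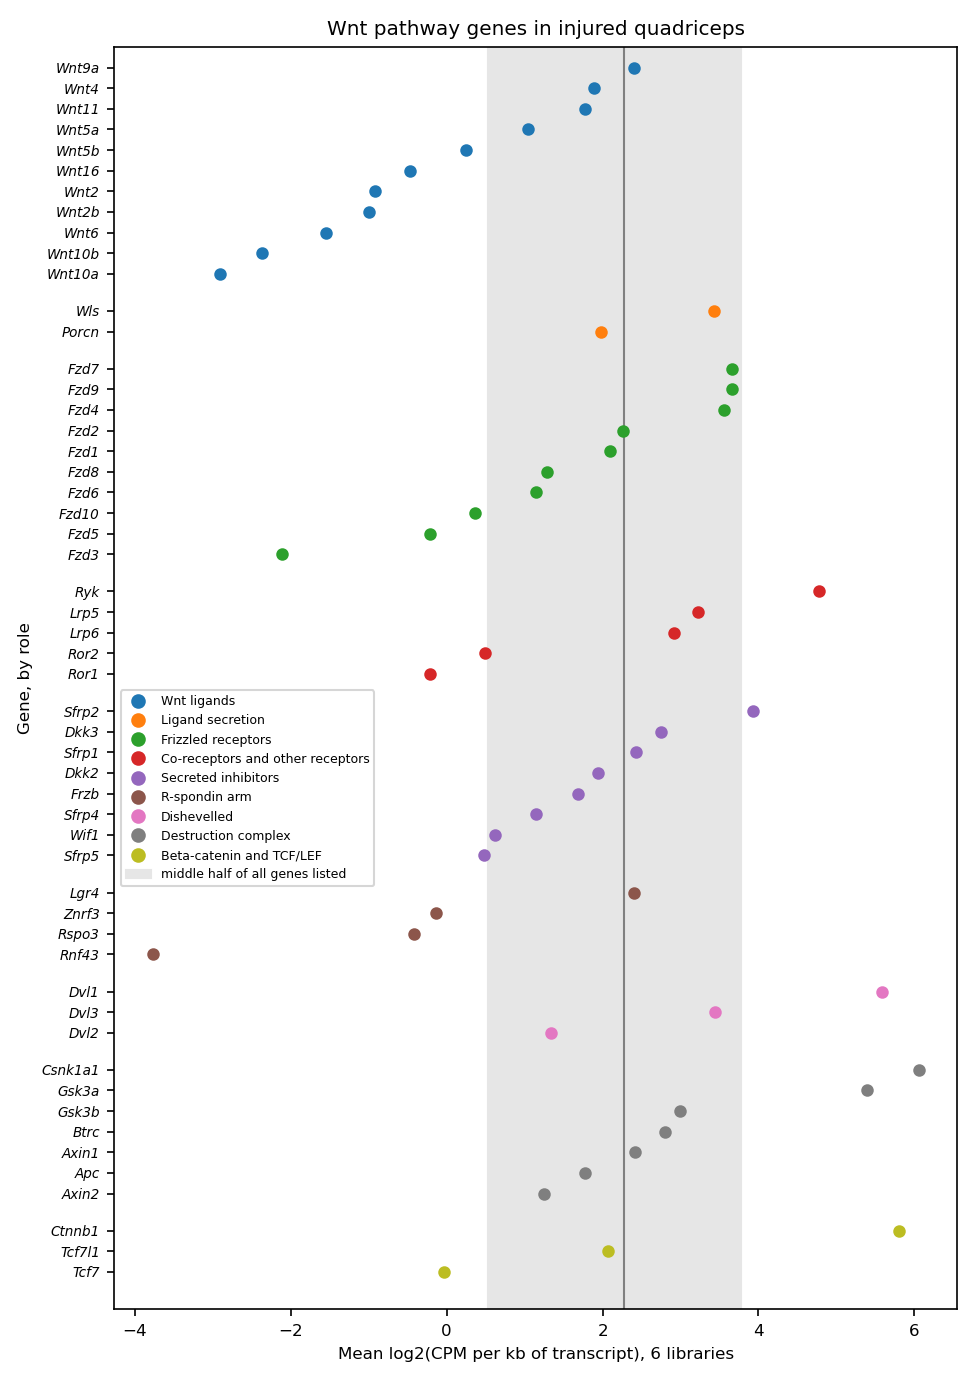
Per-length level (x axis, mean log2 CPM per kb over the 6 libraries) of each of the 53 genes (y axis), coloured by role; the line and the grey band give the median and the range between the quartiles of all genes listed. Csnk1a1, Ctnnb1, Dvl1, Gsk3a, Ryk and Sfrp2 lie right of the band, and 7 of the 11 Wnt ligands lie left of it.

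Among the ligands, Wnt9a had the highest per-length level, 2.40, followed by Wnt4 at 1.89 and Wnt11, which acts mainly without beta-catenin, at 1.78. These 3 genes made up 68.7% of the summed CPM per kb of the 11 ligands. Here and below, CPM per kb is the per-length level taken back from the log2 scale. It therefore rests on a mean of logs over the libraries, not on a mean of CPM. With the longest transcript Wnt9a alone was above the median of all genes, with the median length no ligand was, and per kb of coding sequence 4 were: Wnt9a, Wnt4, Wnt5a and Wnt11. With each of the 3 lengths, 7 of the 11 ligands were below the lower quartile. Wnt5a, the best known ligand of the pathway without beta-catenin, had a per-length level of 1.04 and its close relative Wnt5b one of 0.25. The difference between them was 0.80 on this log2 scale and 2.33 per kb of coding sequence.
The other ligands were lower. Wnt16 had a per-length level of -0.47, Wnt2 of -0.92, Wnt2b of -0.99 and Wnt6 of -1.55. Wnt10b, known to hold back fat formation, was at -2.37, and Wnt10a was the lowest ligand, at -2.90.

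For the lowest genes the mean alone does not show how evenly the libraries held them. Wnt6, Wnt10b, Wnt10a and the ligase gene Rnf43 had a mean log2 CPM below 0, that is, under 1 CPM: -0.50, -0.94, -1.60 and -1.66. The authors' filter came before TMM normalization and log transformation, so it sets no exact bound on the deposited values of single libraries. Which libraries held little of a gene is not shown by a mean. Genes with a mean log2 CPM below 0 made up 4 of the 53 (7.55%) and 8.55% of all genes.

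Both genes for ligand secretion were listed. Wls, the carrier that takes lipid-bearing Wnt proteins to the cell surface, had a per-length level of 3.42. Porcn, which attaches the lipid at the serine shown above, was 1.44 lower on the log2 scale, at 1.99, and 2.13 lower per kb of coding sequence. Wls was above all 11 ligands with each of the 3 lengths. Porcn was below Wnt9a with the longest transcript, below Wnt9a and Wnt11 with the median length, and below Wnt9a, Wnt4, Wnt5a and Wnt11 per kb of coding sequence.

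The Frizzled receptors were led by Fzd7, a receptor of satellite cells, at a per-length level of 3.66, Fzd9 at 3.66 and Fzd4, a receptor of endothelium that also binds Norrin, at 3.56. Together these 3 made up 69.7% of the summed CPM per kb of the 10 receptors. Their order depended on the length used: per kb of coding sequence Fzd4 (5.62) came before Fzd7 (5.06) and Fzd9 (4.02). Fzd2 (2.27) and Fzd1 (2.09) share 1.90% and 1.61% of their 31-base words with other genes, chiefly with each other. With the longest transcript they were close to the median of all genes, at percentiles 49.9 and 46.7. Their percentiles were 41.5 and 39.1 with the median length, and 49.2 and 46.6 per kb of coding sequence.
The remaining Frizzled genes were lower. Fzd8 was at 1.29 and Fzd6 at 1.15 on the per-length scale. Fzd10 was at 0.37, Fzd5 at -0.21 and Fzd3, a receptor of planar cell polarity, at -2.11. In Fzd5, 17.3% of the 31-base words also occur in other genes, mainly Gm38058. Fzd3 was the lowest of the 10 receptors with each of the 3 lengths, and also by mean log2 CPM, at 1.56. Over the 10 genes the summed CPM per kb was 53.1, against 18.1 for the 11 ligands with a row, a ratio of 2.94. That ratio was 2.32 with the median length and 2.17 per kb of coding sequence. Ligands without a row are not in it.

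Frizzled receptors take hold of Dishevelled through a short motif in their tail, lysine and threonine followed after 3 residues by tryptophan. It is shown for the 3 highest genes and for Fzd3, the lowest, since these span the range of levels. Capitals mark the codons of the fixed residues, with positions on GRCm38 as above.

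Fzd7, chr1:59484607-59484624, plus strand, exon 1 of 1: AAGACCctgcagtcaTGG
Fzd9, chr5:135249416-135249433, minus strand, exon 1 of 1: AAGACTtttcagactTGG
Fzd4, chr7:89408241-89408258, plus strand, exon 2 of 2: AAAACTcttcacacgTGG
Fzd3, chr14:65212107-65212124, minus strand, exon 5 of 7: AAGACAtgctttgaaTGG

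The motif stands close to the end of the protein in Fzd7, with 17 residues after it, and far from it in Fzd3, with 159. Fzd9 and Fzd4 lie between, with 54 and 33 residues after the motif.

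Of the other receptors, Ryk, a pseudokinase that binds Wnt ligands, had the highest per-length level, 4.78, which was 1.86 above Lrp6 on the log2 scale. That gap was 1.05 with the median length, and by mean log2 CPM, with no length, it was 0.14. Lrp5 was at 3.23 and Lrp6 at 2.92, both co-receptors of the beta-catenin pathway. Lrp6 was above the median of all genes with each of the 3 lengths, and Lrp5 was below it per kb of coding sequence (3.32 against 3.42). Their order turned with the length: the difference of Lrp6 from Lrp5 was -0.31 with the longest transcript and 0.56 per kb of coding sequence. Ror2 (0.49) and Ror1 (-0.21), receptors for Wnt5a, were both below the lower quartile of all genes.

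The median per-length level of the secreted inhibitors was 1.81, against -0.47 for the ligands. Sfrp2, which binds Wnt proteins outside the cell, was highest at a per-length level of 3.93. It was the only gene of this role above the upper quartile of all genes with the longest transcript and per kb of coding sequence, and none was with the median length. A gene on the opposite strand, Gm26771, overlaps 17.3% of the Sfrp2 transcript, and without strand information, which the sources used here do not give, reads of such partners cannot be told apart. Gm26771 had no row of its own. Neither did Gm8398, Gm38058, Gm48159 and 9130221H12Rik, the main partners of Wnt11, Fzd5, Rspo3 and Gsk3a, so no level can be given for these partners. Dkk3 was at 2.75, Sfrp1 at 2.43 and Dkk2, which binds Lrp5 and Lrp6, at 1.94. Frzb, also known as Sfrp3, was at 1.69 and Sfrp4 at 1.14. Wif1 (0.62) and Sfrp5 (0.48) were the lowest inhibitors. The summed CPM per kb of the 8 inhibitors was 39.6, which was 2.19 times that of the 11 ligands with a row. Dkk3, in this role by its family name, made up 17.0% of the inhibitor sum. The ratio to the ligands was 1.88 with the median length and 1.96 per kb of coding sequence.

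R-spondins strengthen Wnt signals by drawing the ligases Rnf43 and Znrf3, which remove Frizzled receptors from the surface, into a complex with Lgr receptors. Rspo3 was the only R-spondin with a row, at a per-length level of -0.42, and 12.3% of its 31-base words are shared, mainly with Gm48159. Lgr4 was at 2.40, above the median of all genes (2.28), but below it with the median length (2.41 against 2.82) and per kb of coding sequence (3.23 against 3.42). Znrf3 was at -0.14 and Rnf43 at -3.77, the lowest of all 53 genes with each of the 3 lengths. The difference of Znrf3 from Rnf43 was 3.64 with the longest transcript and 3.97 per kb of coding sequence.

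The Dishevelled genes differed widely. Dvl1 had a per-length level of 5.59, Dvl3 of 3.44 and Dvl2 of 1.34. Dvl1 was thus 4.25 above Dvl2 on the log2 scale, and 3.75 above it per kb of coding sequence. The Dvl2 transcript is overlapped over 24.6% of its length by other genes, chiefly Acadvl, a fat oxidation gene on the opposite strand with a mean log2 CPM of 8.39, so that its value is uncertain.

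In the destruction complex, Csnk1a1, the kinase that primes beta-catenin, was the highest of all 53 genes with the longest transcript and per kb of coding sequence, at a per-length level of 6.06. Gsk3a, a kinase of the next step, was at 5.40 and its paralogue Gsk3b at 3.00. That gap of 2.40 came with a Gsk3b transcript of 8303 bases and was 0.34 per kb of coding sequence, and 26.0% of the 31-base words of Gsk3a are also found in other genes, mainly 9130221H12Rik on the opposite strand. Btrc, the ubiquitin ligase subunit that recognises phosphorylated beta-catenin, was at 2.81.
The scaffold genes were lower than the kinases. Axin1 was at 2.41, Apc at 1.77 and Axin2, itself a target gene of the pathway, at 1.25. Axin1 was 1.17 above Axin2 with the longest transcript and 0.95 above it per kb of coding sequence, but 0.80 below it with the median length over coding transcripts. The median length of Axin2 was 826 bases, below the 2520 bases of its coding sequence. That turned order rests on transcripts too short to hold the whole coding sequence.

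Ctnnb1, the gene of beta-catenin, was at a per-length level of 5.80 and a mean log2 CPM of 7.66. It came after Csnk1a1 with the longest transcript and per kb of coding sequence, and with the median length it was the highest of all 53 genes (7.98 against 7.04 for Csnk1a1). That median length was 800 bases, below the 2343 bases of the coding sequence. The turned order thus rests on transcripts too short to hold the whole coding sequence. The neighbouring gene Ulk4 on the opposite strand overlaps 20.9% of its transcript but had a mean log2 CPM of only -0.24. Tcf7l1, a TCF factor known mostly as a repressor, was at 2.07. Tcf7, a factor that T cells also use, was at -0.03, beside the T cell genes Cd3d at 0.80 and Cd3e at -0.97, and the part of T cells in its level was not tested.
The stretch of Ctnnb1 on which Csnk1a1, Gsk3 and Btrc act, all of which had a row, is 42 coding bases long, and capitals mark the codons of the phosphorylated serines and threonine.

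Ctnnb1, chr9:120950602-120950643, plus strand, exon 3 of 15: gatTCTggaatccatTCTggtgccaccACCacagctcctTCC

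When the 53 genes were set by place in the cell, a grouping made after their values had been seen, the median level was lowest for secreted and highest for intracellular genes. The 20 secreted genes had a median per-length level of 0.83, the 20 membrane genes of 2.04 and the 13 intracellular genes of 2.81. Below the lower quartile of all genes were 9 secreted, 7 membrane and 1 intracellular gene, and above the upper quartile 1, 1 and 4. The order of the medians was the same per kb of coding sequence, at 2.33, 3.02 and 3.55. Each group spanned over 6 units on the log2 scale, from -2.90 to 3.93 for secreted, from -3.77 to 4.78 for membrane and from -0.03 to 6.06 for intracellular genes, so the groups overlapped.

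**Figure D3:**
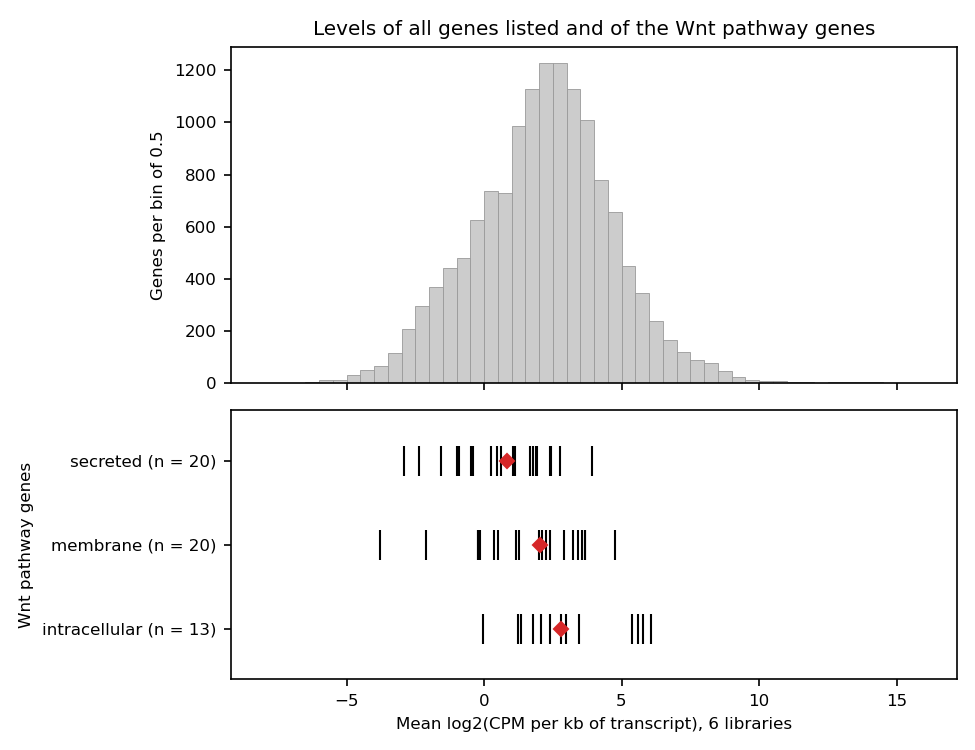
Upper panel, number of genes per bin of 0.5 for the 13940 genes with a known length, by per-length level (x axis, mean log2 CPM per kb); lower panel, each Wnt pathway gene as a tick by place in the cell, with the median as a red diamond. The medians lie at 0.83, 2.04 and 2.81, and the ticks of the groups overlap.

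Of 39 further genes of the pathway, set down as a list with earlier results of these data known, 36 had a row, and Bcl9l, Celsr1 and Sp5 had none. Their median per-length level was 1.55, 12 of the 36 were above the median of all genes and 13 were below the lower quartile. The highest were the casein kinase gene Csnk1d (4.68), Tnks2 (4.65), whose product marks Axin for destruction, and Kremen1 (4.34), a partner of Dkk proteins. Tcf7l2, the remaining TCF factor, was at 2.00. Among genes known as targets of beta-catenin, Axin2, given above, was at 1.25, Nkd1 at -0.93, Lgr5 at -2.40 and Notum, which removes the lipid from Wnt proteins, at -2.43. Ccnd1 (2.71) and Myc (2.26), which many other signals also drive, were higher than these. Nkd2 of the same list was at -0.05. Whether the levels of target genes reflect the activity of the pathway was not tested. The lowest of the list was Daam2, a partner of Dishevelled in cell polarity, at -4.37.

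**Figure D4:**
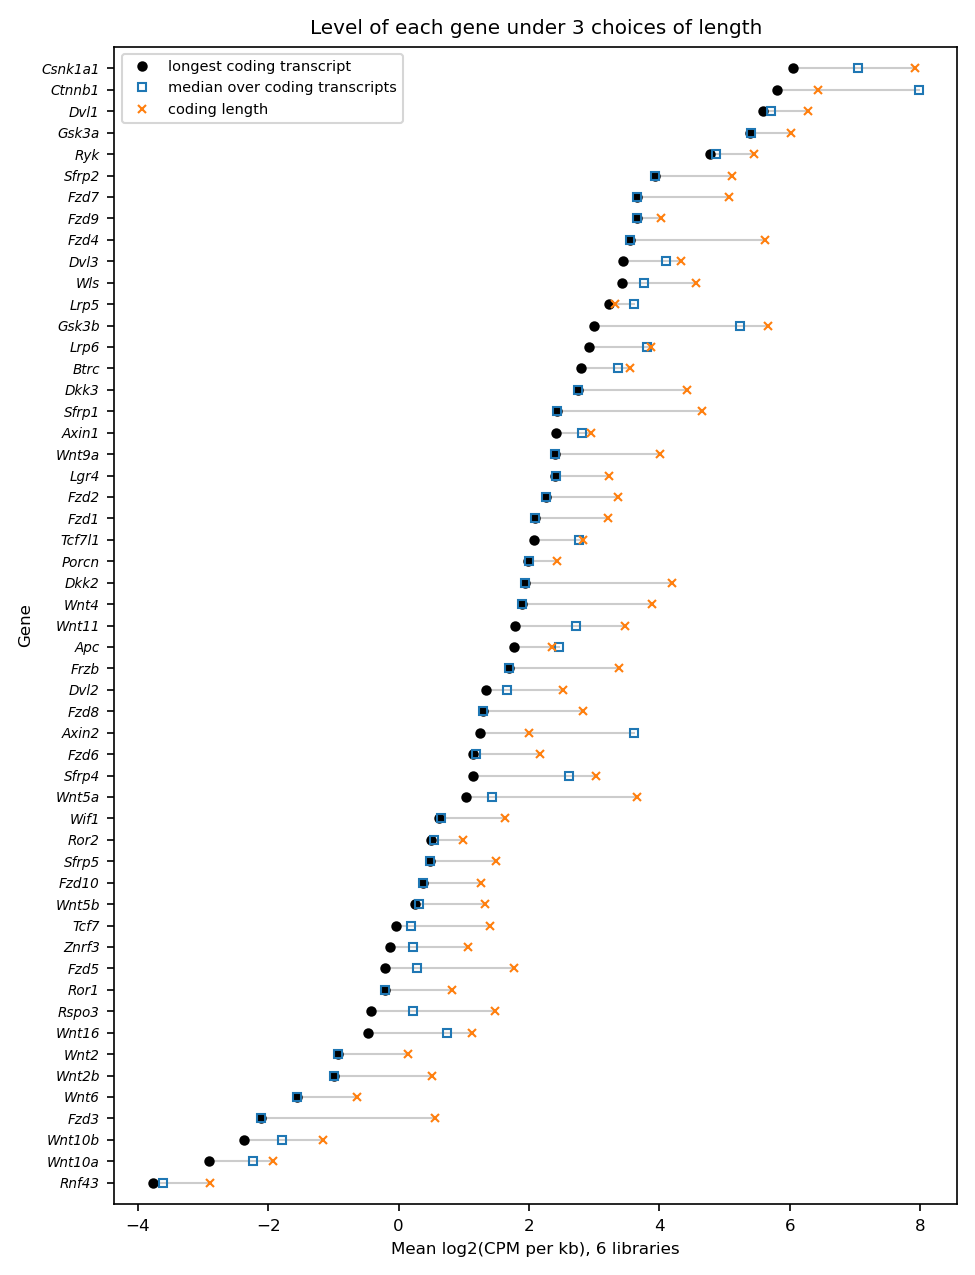
Level (x axis, mean log2 CPM per kb) of each of the 53 genes (y axis, by per-length level) with 3 choices of length: longest coding transcript (black dots), median over coding transcripts (blue squares) and coding length (orange crosses). Axin2, Gsk3b and Ctnnb1 have squares more than 2 units from their dots, while dot and square lie within 0.1 for 28 genes. For Axin2 and Ctnnb1 the median length is shorter than the coding sequence.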

How the data were processed

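Poly(A) RNA of injured quadriceps from 3 WT and 3 GATA-1 mutant mice was sequenced with paired-end reads. The authors pseudoaligned reads with kallisto, summed transcripts to genes, computed CPM with edgeR, dropped genes that did not pass 1 CPM in 3 or more samples, applied TMM normalization and log transformation, and compared genotypes with limma. The deposited table holds the mean log2 CPM over all samples, used here, and the authors' own fold changes, moderated t, p-values and log odds, which were not used. It holds no values per mouse, so the planned limma test was not run, and depth per sample is unknown.

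Symbols of 13458 genes were matched directly and of 482 by older symbols (99.5% in all) to GENCODE M21 on GRCm38, and transcript lengths were taken from it. The median length counted every coding transcript, also partial ones. For Ctnnb1, Axin2, Lrp5 and Apc it was shorter than the longest coding sequence. Percentiles count genes at or below a value. Sharing was measured as 31-base words that any other gene's transcripts hold, in either orientation. Calculations used Python 3.11.15, pandas 2.3.3 and numpy 2.4.6 and were tested on simulated data. The genes, roles and lists were chosen with earlier results of these data known, and the pairs and places in the cell after the values were seen. Every gene of the rule is given by role. Planned protein stretches were replaced by the coding bases, and those of Lrp5 and Lrp6 are not reported here.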

Additional observations from a re-analysis of the deposited data

How the results depend on the processing

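No paired analysis was possible because the table holds no values per mouse, and for the same reason leaving out each mouse, another normalization, no filter and another pseudocount were not run. With a minimum mean log2 CPM of 1 or 3, 47 and 34 of the 53 genes remained, with a median log2 CPM of 3.96 and 4.53 and a median per-length level of 1.99 and 2.42. The family names of the rule alone gave 33 genes with a median log2 CPM of 3.67. Among protein-coding genes only, the median of the 53 genes was at percentile 45.4, against 46.2 among all genes. The median per-length level was 2.09 with the median length over coding transcripts and 3.03 per kb of coding sequence, but all genes moved too, so that the percentile of the Wnt genes' median was 41.6, 39.1 and 43.5 with the 3 lengths. The highest gene of a role was the same in 8 of 9 roles under each other scale: Fzd4 led the Frizzled genes by log2 CPM and per kb of coding sequence, and Wnt11 led the ligands with the median length. Depth limits every low value, and no error can be given for any of them.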
